A study of Mus musculus with 15 samples.

Results

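The histone genes of B16.F10 cells were taken as every row of the count tables whose gene symbol names a linker, core or variant histone, with blank symbols filled from the gene ID. This gave 49 of the 13172 genes listed. They were 5 linker histone genes, 34 genes classed by symbol as replication-dependent core histone genes (10 H2A, 9 H2B, 7 H3 and 8 H4) and 7 variant histone genes. The other 3 were further H3.3-type copies, which are H3f3c and the pseudogenes H3f3a-ps1 and H3f3a-ps2. All 5 groups listed 33 of the 49, among the 12721 genes tested: every linker, variant and H3.3-type copy, and 18 core genes. The other 16 core genes were missing from the list of at least 1 group.

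B16.F10 is a mouse melanoma cell line, kept here in 1% oxygen. Hif1a_siRNA_Dox cells received a siRNA against Hif1a and, 24 h later, 0.25 µM doxorubicin for 24 h. Dox cells received 0.25 µM doxorubicin for 24 h and no siRNA is named for them. Hif1a_siRNA cells received the siRNA against Hif1a alone, NC_siRNA cells a negative control siRNA, each siRNA at 25 nM in lipid complexes, and Control cells neither agent. Each group had 3 libraries of total RNA made with a stranded mRNA kit, labelled biological replicates. Whether these were separate cultures is not stated, and p-values reflect only how far these libraries vary, which may be technical. In bulk RNA, fewer cells of a kind and less RNA per cell cannot be told apart. Doxorubicin is an anthracycline that enters DNA and traps topoisomerase II on it.

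Histones package DNA into nucleosomes: pairs of the core histones H2A, H2B, H3 and H4 form the particle, and a linker histone of the H1 family binds where DNA enters and leaves it. Replication-dependent core and linker histone genes sit in clusters, are transcribed in S phase, and their mRNAs usually end in a conserved stem-loop in place of a poly(A) tail. Variant histones such as H3.3, H2A.Z and macroH2A are made through the cell cycle from polyadenylated mRNAs and replace core histones at chosen places. Because the library kit selects poly(A) RNA, the core histone values below count the RNA that was captured, and a change in tail and a change in total mRNA cannot be told apart.

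Library totals ran between 23825110 and 28734303 reads. Hif1a averaged 13.1 CPM (read counts scaled to a common library size) in Hif1a_siRNA_Dox against 142 CPM in Dox, and 17.2 CPM in Hif1a_siRNA against 274 CPM in NC_siRNA, with no overlap between libraries in either pair. All 8 melanocyte markers examined were listed for every group, with summed levels of 29875 to 36751 CPM in Hif1a_siRNA_Dox, 40071 to 46686 in Dox, 9149 to 9556 in Hif1a_siRNA, 8352 to 9026 in NC_siRNA and 13517 to 14649 in Control. Tyrp1, Dct and Pmel carry most of these sums; in Dox against Control 6 of the 8 rose and 2 fell, Sox10 (28.5 CPM in Dox against 200 CPM in Control, means) and Tyr (57.9 CPM in Dox against 78.1 CPM in Control). Of 13 markers of macrophages, fibroblasts, endothelium and keratinocytes, 10 were not listed, among them Ptprc, Pecam1 and Krt5. The 3 listed, Cd68, Col1a1 and Pdgfra, summed to 67.3 to 95.3 CPM in Hif1a_siRNA_Dox, 41.9 to 66.8 in Dox, 11.2 to 12.7 in Hif1a_siRNA, 15.8 to 20.1 in NC_siRNA and 25.1 to 36.6 in Control. They moved apart: in Dox against Control the macrophage marker Cd68 was lower (means of 4.92 CPM in Dox against 23.4 CPM in Control), and the fibroblast markers Col1a1 (46.7 CPM in Dox against 5.49 CPM in Control) and Pdgfra (3.81 CPM in Dox against 0.963 CPM in Control) were higher. The part of either marker list in the results was not tested.

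The stem-loops are shown first, since they are the known 3′ end of replication-dependent histone mRNAs. In the GENCODE vM21 transcripts, a stem-loop was taken as GG followed by further bases that make 6 perfect pairs around a loop of 4 bases beginning TT, read on the transcript strand. It was found in 29 of the 47 members with a matched transcript, against 0.623% of 20871 protein-coding genes. By class it was found in 25 of 34 core genes, in 3 of 5 linker genes (H1f2, H1f3 and H1f4, but not H1f0 or H1f10), and in 1 of 7 variant genes, H2ax. The sequences, with the paired bases in capitals and the loop in lower case, were:
18 members, among them H1f2, H1f3, H1f4, H2ac18 and H2bc8: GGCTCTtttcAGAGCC
H2bc3, H2bc12, H3c3 and H3c6: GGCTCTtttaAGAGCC
H4c4, H4c6, H4c8 and H4c18: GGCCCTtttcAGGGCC
H4c9: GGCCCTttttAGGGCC
H4c2: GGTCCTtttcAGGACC
H2ax: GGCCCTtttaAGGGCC

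The 6 H4 stem-loops differ in their stem letters from those of the core H2A, H2B and H3 and the linker genes, and the H2ax stem has the letters of most H4 stems. For each gene the longest annotated transcript with a stem-loop was used. In 15 of the 29 genes this transcript ran on for at least 100 bases after the stem-loop, 840 bases in H1f2, 822 in H2ax and 330 in H4c9. In 14 it ended within 100 bases. Shorter annotated transcripts were left out, so tail length does not show which RNA was read. Of the 11 core genes with such a long tail 9 were listed for all groups, of the 14 with a short one 6 were, and of the 9 without a match, which include H2bc4 and H2bc21, 3 were. A missing match says only that these letters were not in the annotated transcripts searched.

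Promoter windows of 300 bases, 250 before and 50 after the RefSeq start on GRCm38.p6, were available for 43 of the 49 genes. The H1 box AAACACA, an element known from replication-dependent linker histone promoters, was searched on both strands and held by 7.18% of all 32851 windows. It lay 112 bases upstream of H1f2, 122 upstream of H1f3 and 115 upstream of H1f4, each time with CCAAT closer to the start (54, 51 and 52 bases upstream), and in neither the H1f0 nor the H1f10 window. Among the other histone windows it was in that of the core gene H2ac4, 68 bases upstream, and of the variant gene H3f3a, 181 bases upstream. CCAAT was in 25 of 31 core windows and TATAA in 24 of 31, against 37.4% and 24.9% of all windows. The windows of 3 genes are printed because H1f0 and H1f2 fell most among linker genes under doxorubicin and H4c9 rose in both doxorubicin comparisons; capitals mark AAACACA and CCAAT in H1f2 and TATAA on either strand, partly overlapping, in H4c9.
H1f0, chr15:79027962-79028261, plus strand: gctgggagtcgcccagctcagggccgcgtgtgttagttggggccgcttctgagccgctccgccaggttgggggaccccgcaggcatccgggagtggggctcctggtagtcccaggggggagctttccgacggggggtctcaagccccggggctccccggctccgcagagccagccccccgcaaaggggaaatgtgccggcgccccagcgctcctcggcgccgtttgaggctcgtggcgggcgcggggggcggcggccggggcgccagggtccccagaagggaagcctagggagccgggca
H1f2, chr13:23738557-23738856, plus strand: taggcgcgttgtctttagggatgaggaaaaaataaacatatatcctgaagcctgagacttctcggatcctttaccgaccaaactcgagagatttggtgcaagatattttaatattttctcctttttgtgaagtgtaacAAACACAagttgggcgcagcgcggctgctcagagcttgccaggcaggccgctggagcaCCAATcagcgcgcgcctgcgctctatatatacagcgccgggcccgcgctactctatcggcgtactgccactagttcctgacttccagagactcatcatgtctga
H4c9, chr13:22041313-22041612, minus strand: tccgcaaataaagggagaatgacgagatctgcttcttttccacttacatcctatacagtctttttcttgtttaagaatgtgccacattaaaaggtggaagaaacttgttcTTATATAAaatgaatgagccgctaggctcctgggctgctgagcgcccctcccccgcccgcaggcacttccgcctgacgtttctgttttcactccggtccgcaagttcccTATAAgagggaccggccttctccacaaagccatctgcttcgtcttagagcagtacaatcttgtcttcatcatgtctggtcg

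Across the 33 tested genes, doxorubicin went with lower values for 4 of 5 linker genes in both pairs. The 18 core genes tested had no common direction in Dox against Control, and 14 of them rose in Hif1a_siRNA_Dox against Hif1a_siRNA. This holds for the tested core genes only. The 16 core genes left out, none of them listed for NC_siRNA, are given further below. In Dox against Control 13 rose (39.4%) and 11 fell (33.3%), where 43.9% of all tested genes rose and 39.8% fell at an adjusted p under 0.05. In Hif1a_siRNA_Dox against Hif1a_siRNA 20 rose (60.6%) and 6 fell (18.2%), against 42.6% and 41.6% of all genes. The share of histone genes called in Dox against Control was thus near that of all genes, while the split by class was uneven: 0 of 5 linker genes rose and 4 fell, with a median log2 fold change of -2.61 beside 0.10 over all genes, and 5 of 18 core genes rose and 5 fell, with a median of -0.35. Of the 7 variant genes 5 rose and 2 fell, with a median of 0.56. Tests are edgeR quasi-likelihood tests in 1 fit of 15 libraries, adjusted by Benjamini-Hochberg over 12721 genes.

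**Figure D1:**
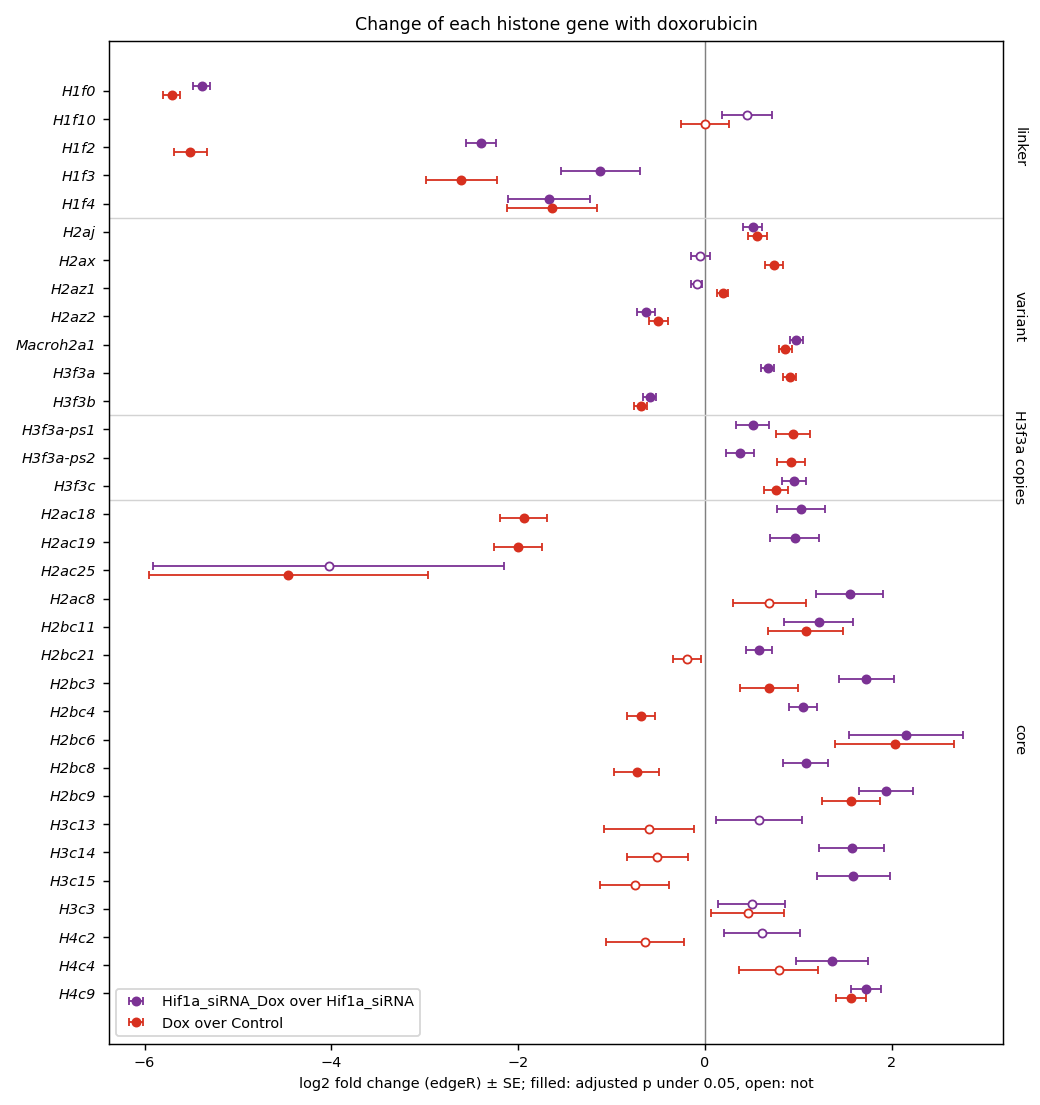
Log2 fold change with its standard error (horizontal axis) of each of the 33 tested histone genes (rows, by class), for Hif1a_siRNA_Dox over Hif1a_siRNA (purple) and Dox over Control (red); filled points have an adjusted p under 0.05. H1f0 lies beyond -5 in both, while H1f2, at -2.40 and -5.51, and H2ac18, at 1.03 and -1.94, stand apart between the 2 contrasts.

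Of the linker histones, H1f0 and H1f2 had the largest falls with doxorubicin, and H1f10 did not pass. H1f0 encodes H1.0, a replication-independent linker histone known for its high level in quiescent and differentiated cells, and its gene lies at chr15:79028212-79030504 (GRCm38.p6, as for all gene positions here). It stood at 20.2, 15.7 and 17.0 CPM in Dox libraries against 866, 995 and 902 CPM in Control libraries. In the siRNA pair it stood at 20.4, 21.8 and 21.1 CPM in Hif1a_siRNA_Dox libraries against 891, 877 and 878 CPM in Hif1a_siRNA libraries. Every doxorubicin library was far below every library without the drug. The log2 fold change was -5.71 ± 0.09 (SE) in Dox over Control, 52.2-fold, with an adjusted p of 2.2e-23, and -5.39 ± 0.09 in Hif1a_siRNA_Dox over Hif1a_siRNA, 41.8-fold, with an adjusted p of 9.5e-23.

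H1f2 encodes H1.2, a somatic replication-dependent linker histone of the large cluster on chromosome 13 (chr13:23738807-23739531), and carries the stem-loop and the H1 box shown above. It had 1.23, 2.60 and 2.17 CPM in Dox libraries against 103, 89.6 and 82.1 CPM in Control libraries. In the siRNA pair it had 4.63, 4.26 and 2.93 CPM in Hif1a_siRNA_Dox libraries against 19.7, 21.5 and 21.6 CPM in Hif1a_siRNA libraries. The groups did not overlap in either pair, and the fall was 45.6-fold in Dox (log2 -5.51 ± 0.18, adjusted p = 6.1e-18) and 5.28-fold in Hif1a_siRNA_Dox (log2 -2.40 ± 0.16, adjusted p = 2.1e-12).

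The same cluster holds H1f3 and H1f4, which encode H1.3 and H1.4 and were read at low levels. H1f3 had 0.613, 0.210 and 0.355 CPM in Dox libraries against 2.82, 1.63 and 2.77 CPM in Control libraries, a fall of 6.10-fold (adjusted p = 1.3e-06), resting on 14, 5 and 8 reads against 64, 37 and 64. In Hif1a_siRNA_Dox it had 0.427, 0.162 and 0.448 CPM against 0.902, 0.665 and 0.661 CPM in Hif1a_siRNA (log2 -1.12 ± 0.42, adjusted p = 0.016). This second call was lost without Hif1a_siRNA replicate 1 (log2 -1.02, adjusted p = 0.051) or without Hif1a_siRNA_Dox replicate 2 (log2 -0.81, adjusted p = 0.083). H1f4 had 0.0876, 0.462 and 0.577 CPM in Dox libraries against 0.750, 1.63 and 1.17 CPM in Control libraries, a fall of 3.12-fold (adjusted p = 0.0029). With the siRNA it had 0.570, 0.162 and 0.489 CPM in Hif1a_siRNA_Dox against 1.06, 1.24 and 1.53 CPM in Hif1a_siRNA, a fall of 3.18-fold (adjusted p = 0.0012).

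H1f10 encodes H1X, a replication-independent linker histone, and passed the test in none of the comparisons. It had 1.58, 2.23 and 1.95 CPM in Dox libraries against 1.76, 2.34 and 1.64 CPM in Control libraries, with overlapping ranges and a log2 difference of 0.00 ± 0.26 (adjusted p = 0.99). In the siRNA pair the values were 1.07, 1.69 and 1.75 CPM in Hif1a_siRNA_Dox and 1.15, 0.846 and 1.29 CPM in Hif1a_siRNA (log2 0.45 ± 0.27, adjusted p = 0.12). It passed when scaled by upper-quartile factors (log2 0.60, adjusted p = 0.044) or without Hif1a_siRNA_Dox replicate 1 (log2 0.65, adjusted p = 0.032).

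**Figure D2:**
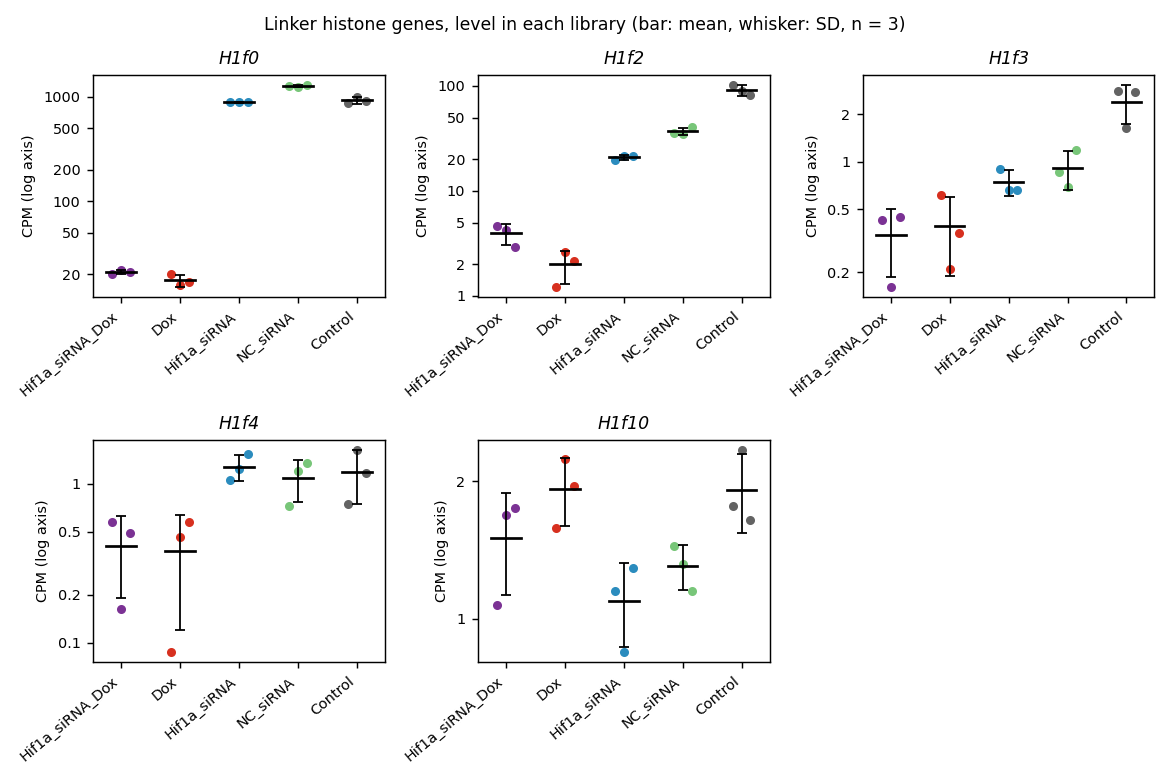
CPM on a log axis of the 5 linker histone genes in every library of the 5 groups (points), with group mean and SD (n = 3). H1f0 libraries sit at 15.7 to 21.8 CPM in both doxorubicin groups and at 866 CPM or above in the other groups, while H1f10 overlaps between Dox and Control.

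Without the drug, linker levels differed less. In Hif1a_siRNA against NC_siRNA 6 of the 33 histone genes rose (18.2%, against 36.4% of all genes) and 12 fell (36.4%, against 31.2%). Of the linker genes none rose and 2 fell. H1f0 had 891, 877 and 878 CPM in Hif1a_siRNA libraries against 1262, 1245 and 1299 CPM in NC_siRNA libraries (1.44-fold lower, adjusted p = 4.8e-07), and H1f2 had 19.7, 21.5 and 21.6 CPM against 35.7, 35.0 and 40.5 CPM (1.77-fold lower, adjusted p = 9.1e-06). In neither gene did the groups overlap. H1f3 had 0.902, 0.665 and 0.661 CPM in Hif1a_siRNA and 0.863, 0.696 and 1.19 CPM in NC_siRNA, and H1f4 1.06, 1.24 and 1.53 CPM in Hif1a_siRNA and 0.719, 1.21 and 1.34 CPM in NC_siRNA, both with overlap and adjusted p of 0.47 and 0.60.

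NC_siRNA against Control sets cells given the control siRNA beside cells given none. In this pair 4 of 33 histone genes rose (12.1%, against 33.1% of all genes) and 16 fell (48.5%, against 33.7%). H1f2 fell to 35.7, 35.0 and 40.5 CPM in NC_siRNA libraries, against 103, 89.6 and 82.1 CPM in Control libraries (2.48-fold, adjusted p = 1.1e-08). H1f3 fell to 0.863, 0.696 and 1.19 CPM in NC_siRNA, against 2.82, 1.63 and 2.77 CPM in Control (2.62-fold, adjusted p = 7.9e-04). H1f0 instead rose 1.38-fold, to 1262, 1245 and 1299 CPM in NC_siRNA libraries against 866, 995 and 902 CPM in Control libraries (adjusted p = 3.7e-06). The count of 4 higher was 2 without Control replicate 3, NC_siRNA replicate 1 or NC_siRNA replicate 3. The share of H1f0 in the reads of H1f0 and H1f2 together, with no correction for length, was 97.2% ± 0.16 (SD, n = 3) in NC_siRNA and 90.9% ± 1.4 in Control. H1f4 and H1f10 did not pass, with log2 differences of -0.12 ± 0.40 and -0.55 ± 0.27.

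Under doxorubicin, Hif1a_siRNA_Dox against Dox showed 5 histone genes higher (15.2%, against 21.5% of all genes) and 7 lower (21.2%, against 20.8%). No siRNA is named for Dox cells, so transfection and knockdown cannot be told apart in this pair. The count of 5 was 1 without Hif1a_siRNA_Dox replicate 2 and 3 without Dox replicate 1, without Dox replicate 2 or without Hif1a_siRNA_Dox replicate 1. H1f2 was higher, with 4.63, 4.26 and 2.93 CPM in Hif1a_siRNA_Dox libraries against 1.23, 2.60 and 2.17 CPM in Dox libraries (log2 0.98 ± 0.21, adjusted p = 7.2e-04). H1f0 was 1.20-fold higher, at 20.4, 21.8 and 21.1 CPM in Hif1a_siRNA_Dox against 20.2, 15.7 and 17.0 CPM in Dox (adjusted p = 0.014). The H1f0 call was lost when only the groups compared were fitted (adjusted p = 0.13), and without Dox replicate 2 (log2 0.18, adjusted p = 0.095), Dox replicate 3 (log2 0.23, adjusted p = 0.054) or Hif1a_siRNA_Dox replicate 2 (log2 0.22, adjusted p = 0.057). H1f3, H1f4 and H1f10 did not pass in this pair, with log2 differences of -0.21 ± 0.49, 0.09 ± 0.54 and -0.35 ± 0.26.

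Replication-dependent core histone genes were read at low levels, and of the 18 tested the 6 with the highest mean over the 15 libraries are given in full. H2bc4 encodes a core H2B and had 17.0, 18.3 and 18.4 CPM in Dox libraries against 36.9, 23.4 and 26.1 CPM in Control libraries, a fall of 1.60-fold without overlap (adjusted p = 2.0e-04). With the Hif1a siRNA it went the other way, at 20.0, 22.4 and 18.8 CPM in Hif1a_siRNA_Dox libraries against 9.76, 10.7 and 9.11 CPM in Hif1a_siRNA libraries (2.07-fold higher, adjusted p = 1.1e-06). H2bc21 was placed among the core H2B genes by its symbol. No stem-loop was matched in it, and whether it depends on replication was not tested. H2bc21 had 13.4, 10.7 and 9.09 CPM in Dox against 14.5, 11.6 and 11.8 CPM in Control. Those ranges overlapped and the log2 difference of -0.19 ± 0.15 did not pass, but it passed without Dox replicate 1 (log2 -0.35, adjusted p = 0.039). With the siRNA H2bc21 rose 1.49-fold, to 14.3, 12.4 and 13.8 CPM in Hif1a_siRNA_Dox against 8.21, 10.5 and 8.30 CPM in Hif1a_siRNA (adjusted p = 7.1e-04).

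H2ac18 encodes a core H2A and has a near-identical neighbour, H2ac19, whose reads differed from its own by 0 to 7 in the 15 libraries, so their split is uncertain. H2ac18 had 0.832, 1.39 and 1.46 CPM in Dox libraries against 5.38, 5.29 and 3.46 CPM in Control libraries, a fall of 3.83-fold (adjusted p = 2.1e-07). With the siRNA it rose 2.04-fold, to 1.85, 2.24 and 1.79 CPM in Hif1a_siRNA_Dox libraries against 0.871, 0.967 and 1.05 CPM in Hif1a_siRNA libraries (adjusted p = 9.4e-04). Neither pair of groups overlapped. H2bc8, a core H2B gene, had 1.97, 2.73 and 2.57 CPM in Dox against 5.34, 3.00 and 3.72 CPM in Control (1.66-fold lower, adjusted p = 0.0075), a call lost without Control replicate 1 (log2 -0.47, adjusted p = 0.085). Its values with the siRNA were 3.49, 4.26 and 2.81 CPM in Hif1a_siRNA_Dox against 1.90, 1.39 and 1.71 CPM in Hif1a_siRNA (2.12-fold higher, adjusted p = 2.2e-04).

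H4c9, a core H4 gene at chr13:22040960-22041362, rose with doxorubicin in both settings. It had 15.2, 15.0 and 18.9 CPM in Dox libraries against 5.74, 5.56 and 5.41 CPM in Control libraries (2.94-fold, adjusted p = 3.5e-09). In the siRNA pair it had 8.58, 11.3 and 9.98 CPM in Hif1a_siRNA_Dox libraries against 2.30, 3.32 and 3.40 CPM in Hif1a_siRNA libraries (3.30-fold, adjusted p = 1.0e-09). The doxorubicin libraries were above all others, and among them those with the siRNA were below those without it (log2 -0.72 ± 0.15 in Hif1a_siRNA_Dox over Dox, adjusted p = 5.7e-04).

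H2ac25, a core H2A gene outside the main clusters, lies within the annotated span of Trim17 (chr11:58954685-58955192 on GRCm38.p6), and its values are uncertain. It had 0.306, 1.26 and 0.310 CPM in Dox libraries against 20.1, 19.5 and 2.60 CPM in Control libraries, 22.0-fold lower with an adjusted p of 0.017. The call was lost without Dox replicate 1 or 3 (log2 -4.14, adjusted p = 0.054 in either case). In Dox libraries H2ac25 had 7, 30 and 7 reads, and the sums of H2ac25 and Trim17 were 2781, 3437 and 2282 reads. In Control libraries H2ac25 had 455, 443 and 60 reads and Trim17 had 212, 180 and 581, so the split swung between them while their sums were 667, 623 and 641. In the siRNA groups H2ac25 ran from 0.162 to 0.244 CPM in Hif1a_siRNA_Dox, 0.0907 to 9.38 in Hif1a_siRNA and 1.73 to 15.7 in NC_siRNA, and passed in no other pair. In Hif1a_siRNA_Dox against Hif1a_siRNA (adjusted p = 0.067) it passed with DESeq2 (adjusted p = 0.0025), without Hif1a_siRNA replicate 1 (adjusted p = 0.044) or without Hif1a_siRNA replicate 2 (adjusted p = 0.026).

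**Figure D3:**
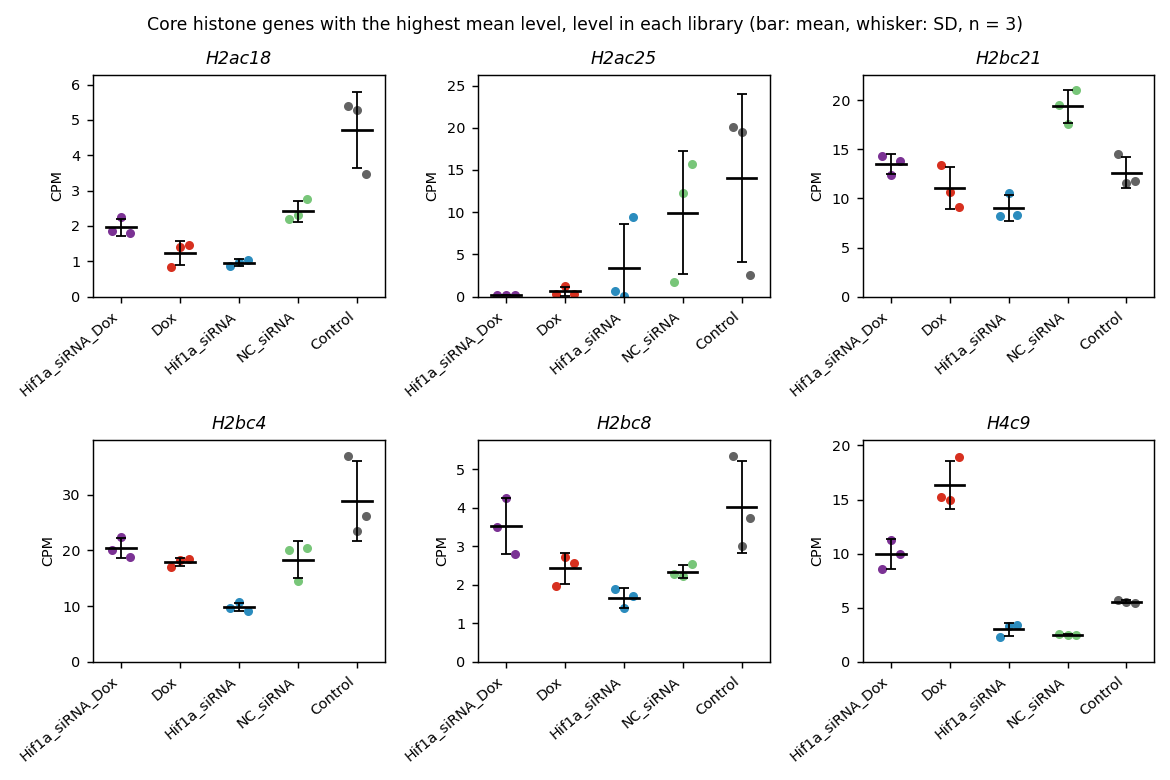
CPM of the 6 core histone genes with the highest mean level in every library of the 5 groups (points), with group mean and SD (n = 3). H4c9 is highest in the doxorubicin groups, H2ac18 is highest in Control, and H2ac25 varies within a group, from 2.60 to 20.1 CPM in Control.

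The other 12 core genes tested ran from 0.0719 to 6.66 CPM. By family, in Dox against Control none of the 4 H2A genes rose and 3 fell (H2ac18, H2ac19 and H2ac25). H2ac18 and H2ac19 are near-identical neighbours whose split of reads is uncertain, and the H2ac25 values are uncertain too. Of 7 H2B genes 4 rose (H2bc3, H2bc6, H2bc9 and H2bc11) and 2 fell (H2bc4 and H2bc8). None of the 4 H3 genes passed, and 1 of 3 H4 genes rose, H4c9. Over all genes 43.9% rose and 39.8% fell in this pair. H2bc9 had 1.44, 1.81 and 1.42 CPM in Dox against 0.662, 0.485 and 0.433 CPM in Control (2.94-fold higher, adjusted p = 7.6e-05). H2bc6, whose annotated span overlaps the noncoding gene Gm33387, varied within a group, from 0.896 to 6.66 CPM in Hif1a_siRNA_Dox. In Hif1a_siRNA_Dox against Hif1a_siRNA 14 of 18 core genes rose (77.8%, against 42.6% of all genes) and 0 fell (against 41.6%). Their median log2 fold change was 1.15 beside 0.04 over all genes. Those that rose were all 7 H2B genes, 3 of 4 H2A, 2 of 4 H3 and 2 of 3 H4. The 14 include the near-identical neighbours H2ac18 and H2ac19, and H3c14 and H3c15, whose split of reads is uncertain.

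Values of the tested core histone genes were mostly lower in NC_siRNA than in Control. In NC_siRNA against Control 1 of 18 core genes rose, H2bc21 (5.56%, against 33.1% of all genes), and 12 fell (66.7%, against 33.7%). The median log2 fold change without H2ac25 was -1.04, beside -0.01 over all genes. A gene could be listed for NC_siRNA through its Control reads alone, which favours falls in this count and median. H2ac8 had 13, 36 and 10 reads in Control against 5, 8 and 7 in NC_siRNA, and H3c13 14, 21 and 13 against 5, 3 and 7. The part of this rule in the fall was not tested. All 4 H3 genes were among those lower; H3c14 had 0.540, 0.513 and 0.893 CPM in NC_siRNA libraries against 2.07, 2.16 and 1.64 CPM in Control libraries (3.01-fold, adjusted p = 3.9e-04), and its near-identical neighbour H3c15 differed from it by 3 to 13 reads per library. H4c9 had 2.55, 2.49 and 2.53 CPM in NC_siRNA against 5.74, 5.56 and 5.41 CPM in Control (2.20-fold lower, adjusted p = 6.4e-06). H2ac18 had 2.19, 2.31 and 2.75 CPM in NC_siRNA against 5.38, 5.29 and 3.46 CPM in Control (1.95-fold lower, adjusted p = 9.2e-04), and H2bc4 20.0, 14.5 and 20.5 CPM against 36.9, 23.4 and 26.1 CPM (1.57-fold lower, adjusted p = 5.2e-04). H2bc8 had 2.27, 2.23 and 2.53 CPM against 5.34, 3.00 and 3.72 CPM (1.71-fold lower, adjusted p = 0.0061), a call lost without Control replicate 1 (log2 -0.52, adjusted p = 0.072). H2bc21 was at 19.5, 17.6 and 21.0 CPM in NC_siRNA against 14.5, 11.6 and 11.8 CPM in Control (1.54-fold higher, adjusted p = 5.3e-04).

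Knockdown without the drug split the core genes. In Hif1a_siRNA against NC_siRNA H2ac8, H2bc11 and H3c3 rose and H2ac18, H2ac19, H2bc4 and H2bc21 fell, with a median of 0.12 over 18 core genes beside 0.06 over all genes. These are 16.7% higher and 22.2% lower, against 36.4% and 31.2% of all genes. H2bc21 fell to 8.21, 10.5 and 8.30 CPM in Hif1a_siRNA, against 19.5, 17.6 and 21.0 CPM in NC_siRNA (2.15-fold, adjusted p = 3.2e-07). H2bc4 fell to 9.76, 10.7 and 9.11 CPM in Hif1a_siRNA, against 20.0, 14.5 and 20.5 CPM in NC_siRNA (1.86-fold, adjusted p = 1.9e-05), and H2ac18 to 0.871, 0.967 and 1.05 CPM, against 2.19, 2.31 and 2.75 CPM (2.50-fold, adjusted p = 8.8e-05). H2ac25 missed the threshold here (adjusted p = 0.26) and passed without Hif1a_siRNA replicate 3 (log2 -4.62, adjusted p = 0.013). H2bc8 (log2 -0.49 ± 0.25) and H4c9 (log2 0.25 ± 0.18) did not pass, though H2bc8 passed when only these groups were fitted (log2 -0.54, adjusted p = 0.022). In Hif1a_siRNA_Dox against Dox, H2ac18 and H2ac19 rose, H4c9 fell and 15 of 18 core genes did not pass. That is 11.1% higher and 5.56% lower, against 21.5% and 20.8% of all genes. The H2ac18 call (log2 0.68 ± 0.27, adjusted p = 0.043) was lost without Dox replicate 1 (adjusted p = 0.21), Dox replicate 2 (0.050), Hif1a_siRNA_Dox replicate 1 (0.053) or Hif1a_siRNA_Dox replicate 2 (0.14). It was also lost when only these groups were fitted (0.11), with upper-quartile factors (0.059) and with the replicate block (0.052). H2bc21 passed without Dox replicate 1 (log2 0.45, adjusted p = 0.026), and H2bc8 without Hif1a_siRNA_Dox replicate 3 (log2 0.68, adjusted p = 0.031) or with RLE size factors (log2 0.59, adjusted p = 0.049).

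The 16 core genes missing from at least 1 list cannot be counted as rising. Every gene listed for a group reached 10 reads in 3 or more libraries of that group and Control combined, so a gene low in Control entered through the group where it was higher. Hif1a_siRNA_Dox listed 13 of them, Dox 11, Hif1a_siRNA 4 and NC_siRNA 0. The 13 ran from 0.285 to 10.4 CPM in Hif1a_siRNA_Dox and the 11 from 0.525 to 5.77 CPM in Dox, against 0.0433 to 0.749 CPM for either set in Control. H2ac6 is a core H2A gene whose longest annotated transcript with a stem-loop runs 2010 bases past it. H2ac6 had 292, 193 and 132 reads in Hif1a_siRNA_Dox and 114, 133 and 130 reads in Dox, against 6, 8 and 10 reads in Control. H2bc18 had 35, 48 and 46 reads in Hif1a_siRNA against 2, 2 and 4 in Control and was listed for neither doxorubicin group.

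Variant histones moved by smaller amounts, and genes for one variant protein went opposite ways. H3f3a and H3f3b encode the same H3.3 protein, which is deposited throughout the cell cycle, independently of replication. With doxorubicin H3f3a rose to 814, 837 and 853 CPM in Dox libraries, against 474, 442 and 413 CPM in Control libraries (1.88-fold, adjusted p = 5.7e-12). H3f3b fell to 774, 878 and 906 CPM in Dox, against 1316, 1453 and 1370 CPM in Control (1.62-fold, adjusted p = 2.3e-09). In the siRNA pair H3f3a rose to 560, 547 and 624 CPM in Hif1a_siRNA_Dox, against 380, 349 and 357 CPM in Hif1a_siRNA (1.59-fold, adjusted p = 1.5e-09). H3f3b there fell to 681, 773 and 805 CPM, against 1176, 1115 and 1109 CPM (1.51-fold, adjusted p = 3.5e-08). Groups did not overlap in any of these 4 cases, but overlap was not counted over all genes. The share of H3f3a among the reads of both genes, with no correction for length, was 49.5% ± 1.5 (SD, n = 3) in Dox against 24.3% ± 1.9 in Control, and 43.4% ± 1.8 in Hif1a_siRNA_Dox against 24.2% ± 0.33 in Hif1a_siRNA; with 3 libraries against 3 an exact permutation test cannot go below p = 0.1.

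Macroh2a1 encodes macroH2A1, an H2A variant with a large extra domain that is known for its place on silent chromatin. It had 216, 202 and 224 CPM in Dox libraries against 123, 111 and 119 CPM in Control libraries (1.82-fold higher, adjusted p = 6.8e-11). With the siRNA it had 171, 158 and 176 CPM in Hif1a_siRNA_Dox against 87.0, 87.0 and 82.6 CPM in Hif1a_siRNA (1.97-fold higher, adjusted p = 7.0e-12). H2aj, which encodes H2A.J, a variant known from human fibroblasts to build up in senescence, had 65.5, 68.1 and 69.2 CPM in Dox against 44.6, 48.1 and 45.3 CPM in Control (1.47-fold higher, adjusted p = 1.3e-05). Its values with the siRNA were 52.1, 62.3 and 62.0 CPM in Hif1a_siRNA_Dox against 42.1, 40.1 and 42.0 CPM in Hif1a_siRNA (1.42-fold higher, adjusted p = 3.8e-05).

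H2ax encodes H2A.X, the variant phosphorylated next to DNA breaks. Its levels were 22.8, 24.9 and 24.8 CPM in Dox libraries against 14.2, 15.0 and 14.3 CPM in Control libraries (1.67-fold higher, adjusted p = 6.7e-07). With the siRNA they were 30.0, 33.4 and 27.0 CPM in Hif1a_siRNA_Dox and 30.3, 30.3 and 33.3 CPM in Hif1a_siRNA, which overlapped (log2 -0.05 ± 0.10, adjusted p = 0.62). H2ax was already higher in Hif1a_siRNA than in NC_siRNA, at 30.3, 30.3 and 33.3 CPM against 17.3, 15.7 and 19.2 CPM (1.80-fold, adjusted p = 9.2e-08).

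H2az1 and H2az2 encode the 2 forms of H2A.Z, a variant of promoter nucleosomes. H2az2 fell 1.41-fold, with 29.6, 29.1 and 31.0 CPM in Dox libraries against 42.3, 41.8 and 42.8 CPM in Control libraries (adjusted p = 5.1e-05). It fell 1.55-fold in the siRNA pair, with 24.4, 30.9 and 34.3 CPM in Hif1a_siRNA_Dox against 46.0, 44.5 and 48.3 CPM in Hif1a_siRNA (adjusted p = 1.7e-06). H2az1 had 324, 372 and 345 CPM in Dox against 318, 291 and 300 CPM in Control (log2 0.19 ± 0.06, adjusted p = 0.0055), a call lost with RLE size factors (adjusted p = 0.067), with DESeq2 (adjusted p = 0.051) and when only these groups were fitted (log2 0.09, adjusted p = 0.22). With the siRNA H2az1 had 210, 219 and 211 CPM in Hif1a_siRNA_Dox and 233, 226 and 223 CPM in Hif1a_siRNA (log2 -0.09 ± 0.06, adjusted p = 0.18). That pair passed without Hif1a_siRNA replicate 3 (log2 -0.16, adjusted p = 0.043) or Hif1a_siRNA_Dox replicate 2 (log2 -0.16, adjusted p = 0.027), and its direction turned with upper-quartile factors (log2 0.06).

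**Figure D4:**
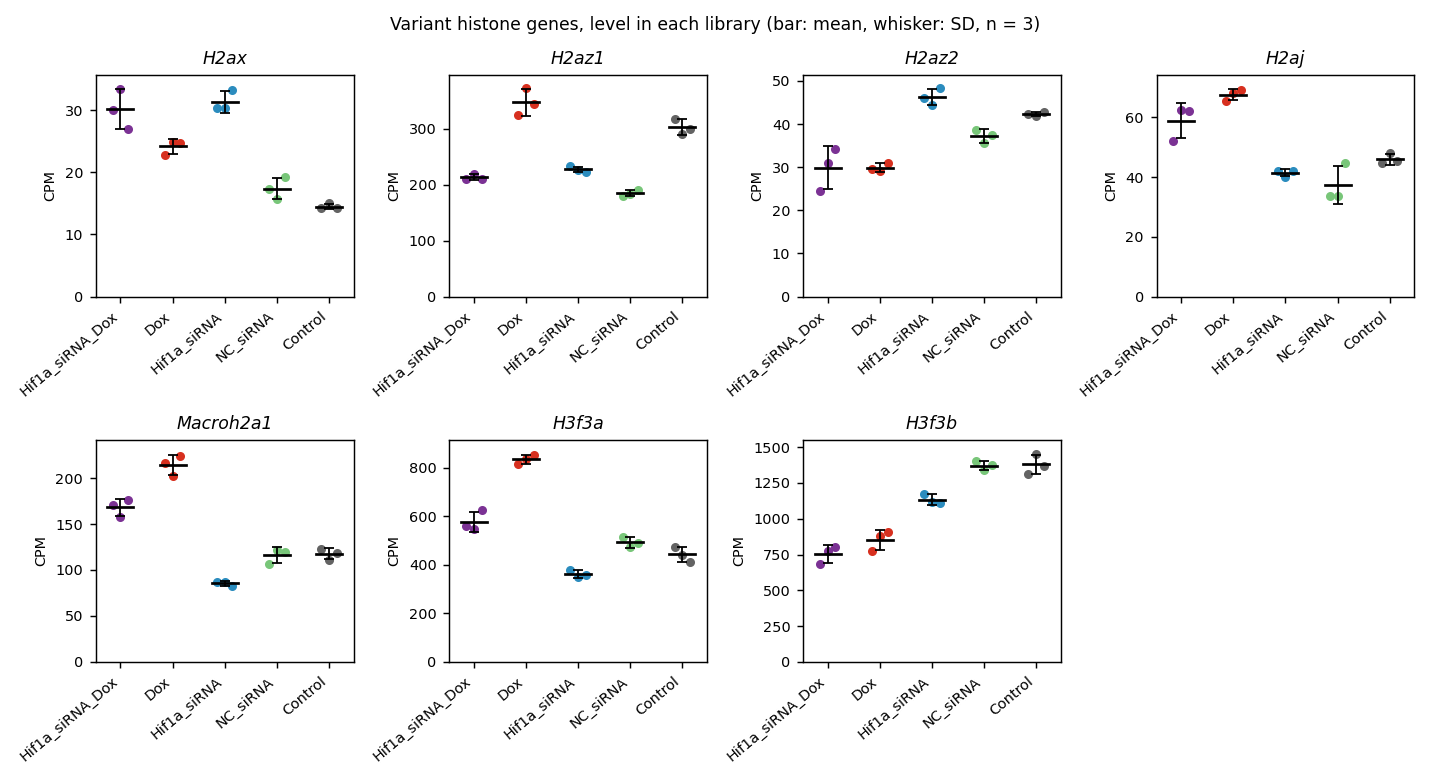
CPM of the 7 variant histone genes in every library of the 5 groups (points), with group mean and SD (n = 3). H3f3a, Macroh2a1 and H2aj are highest in Dox, H3f3b is lower in both doxorubicin groups, and H2ax is high in Hif1a_siRNA_Dox and Hif1a_siRNA alike.

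Among the siRNA comparisons, Hif1a_siRNA against NC_siRNA had 3 of 7 variants higher (H2ax, H2az1 and H2az2) and 3 lower (H3f3a, H3f3b and Macroh2a1). At 42.9% higher and 42.9% lower, these shares lay near the 36.4% and 31.2% of all genes. Macroh2a1 had 87.0, 87.0 and 82.6 CPM in Hif1a_siRNA against 106, 122 and 120 CPM in NC_siRNA (1.36-fold lower, adjusted p = 8.5e-06). H3f3a had 380, 349 and 357 CPM in Hif1a_siRNA against 515, 473 and 489 CPM in NC_siRNA (1.36-fold lower, adjusted p = 2.5e-06), and H3f3b 1176, 1115 and 1109 CPM against 1400, 1339 and 1372 CPM (1.21-fold lower, adjusted p = 0.0013). H2az1 had 233, 226 and 223 CPM in Hif1a_siRNA against 180, 184 and 191 CPM in NC_siRNA (1.23-fold higher, adjusted p = 1.8e-04), and H2az2 46.0, 44.5 and 48.3 CPM against 38.6, 35.5 and 37.5 CPM (1.24-fold higher, adjusted p = 0.0052). The groups overlapped for none of these 5 genes, but overlap was not counted over all genes. H2aj had 42.1, 40.1 and 42.0 CPM in Hif1a_siRNA and 33.6, 33.7 and 44.6 CPM in NC_siRNA (adjusted p = 0.18), and passed without NC_siRNA replicate 3 (log2 0.30, adjusted p = 0.0071).

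In Hif1a_siRNA_Dox against Dox 1 variant rose, H2ax, and 4 fell, H3f3a, H3f3b, Macroh2a1 and H2az1. Of the 7 variants 14.3% were thus higher and 57.1% lower, against 21.5% and 20.8% of all genes. H2az1 had 210, 219 and 211 CPM in Hif1a_siRNA_Dox against 324, 372 and 345 CPM in Dox (1.62-fold lower, adjusted p = 7.2e-09). H3f3a was 1.45-fold lower (adjusted p = 1.1e-06) and Macroh2a1 1.27-fold lower (adjusted p = 3.8e-04), without overlap. H3f3b was 1.13-fold lower with overlapping libraries (adjusted p = 0.040), a call lost with RLE size factors and with DESeq2 (log2 -0.13, adjusted p = 0.12 in both), when only these groups were fitted (log2 -0.17, adjusted p = 0.15), and without Dox replicate 2 (adjusted p = 0.11), Dox replicate 3 (adjusted p = 0.17) or Hif1a_siRNA_Dox replicate 1 (adjusted p = 0.20). The H2ax call (log2 0.32 ± 0.10, adjusted p = 0.012) was lost without Dox replicate 1 (adjusted p = 0.056) or Hif1a_siRNA_Dox replicate 2 (adjusted p = 0.084). H2az2 and H2aj did not pass, with log2 differences of -0.00 ± 0.10 and -0.20 ± 0.10; H2aj passed with upper-quartile factors (log2 -0.24, adjusted p = 0.045).

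In NC_siRNA against Control H2az1 fell to 180, 184 and 191 CPM in NC_siRNA, against 318, 291 and 300 CPM in Control (1.64-fold, adjusted p = 1.1e-09). H2aj was 1.23-fold lower with overlapping libraries (adjusted p = 0.0094), and that call was lost without NC_siRNA replicate 1 (adjusted p = 0.065) or replicate 2 (adjusted p = 0.072). H2ax was 1.20-fold higher (adjusted p = 0.029) and H3f3a 1.11-fold higher (adjusted p = 0.043), both calls lost with upper-quartile factors (adjusted p = 0.074 and 0.20). The H3f3a call was also lost with at least 1 CPM required in 3 libraries (adjusted p = 0.058). Leaving out 1 library, the H2ax call was lost without Control replicate 1 or 3 or NC_siRNA replicate 1 or 3 (adjusted p from 0.054 to 0.15), and the H3f3a call without Control replicate 2 or 3 or NC_siRNA replicate 1 or 3 (adjusted p from 0.072 to 0.21). H2az2, Macroh2a1 and H3f3b did not pass, at log2 -0.18 ± 0.10, -0.02 ± 0.07 and -0.01 ± 0.07; H2az2 passed with upper-quartile factors (log2 -0.24, adjusted p = 0.033).

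The 3 H3.3-type copies can share reads with H3f3a, so their values are uncertain. H3f3c had 12.8, 13.2 and 13.4 CPM in Dox libraries against 7.76, 8.16 and 7.40 CPM in Control libraries (1.69-fold higher, adjusted p = 7.8e-06), and 10.2, 11.4 and 10.5 CPM in Hif1a_siRNA_Dox against 6.12, 4.93 and 5.53 CPM in Hif1a_siRNA (1.94-fold higher, adjusted p = 2.7e-07). The pseudogenes H3f3a-ps1 and H3f3a-ps2 rose 1.92-fold and 1.89-fold in Dox against Control (adjusted p = 9.8e-05 and 4.7e-06). In Hif1a_siRNA_Dox, replicate 3 stood apart for both, with 27.2 CPM beside 14.8 and 12.9 CPM for H3f3a-ps1 and 29.1 CPM beside 17.2 and 18.0 CPM for H3f3a-ps2. Against Hif1a_siRNA they passed with it (log2 0.51 and 0.38, adjusted p = 0.015 and 0.022) and not without it (log2 0.11 and 0.09, adjusted p = 0.33 and 0.43). The H3f3a-ps1 call was also lost without Hif1a_siRNA replicate 2 (adjusted p = 0.097), and the H3f3a-ps2 call without Hif1a_siRNA replicate 1, 2 or 3 (adjusted p from 0.065 to 0.14). Both were lost when only these groups were fitted (adjusted p = 0.085 and 0.070). In Hif1a_siRNA_Dox against Dox H3f3a-ps1 was 1.82-fold and H3f3a-ps2 1.85-fold lower (adjusted p = 8.7e-04 and 4.8e-05), and H3f3c missed the threshold (log2 -0.30 ± 0.12, adjusted p = 0.057) but passed without Hif1a_siRNA_Dox replicate 2 (adjusted p = 0.038) or with upper-quartile factors (adjusted p = 0.032). In Hif1a_siRNA against NC_siRNA all 3 copies were lower, by 1.38-fold to 1.43-fold; the H3f3a-ps1 call was lost without Hif1a_siRNA replicate 2 or 3 or NC_siRNA replicate 1 or 3 (adjusted p from 0.050 to 0.099).

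Summed levels show the classes side by side. The 5 linker genes summed to 27.1, 28.0 and 26.7 CPM in Hif1a_siRNA_Dox, 23.7, 21.2 and 22.1 CPM in Dox, 914, 901 and 903 CPM in Hif1a_siRNA, 1301, 1283 and 1343 CPM in NC_siRNA and 975, 1090 and 989 CPM in Control. Without H1f0 the other 4 summed to 6.19 ± 0.54 CPM in Hif1a_siRNA_Dox and 4.69 ± 1.0 in Dox, against 24.1 ± 1.1 in Hif1a_siRNA, 40.4 ± 3.3 in NC_siRNA and 97.2 ± 11 in Control (SD, n = 3 each). The core genes without H2ac25 summed to 68.7 ± 5.6 CPM in Hif1a_siRNA_Dox, 64.9 ± 3.4 in Dox, 31.9 ± 1.6 in Hif1a_siRNA, 52.0 ± 6.0 in NC_siRNA and 70.9 ± 10.0 in Control. Dox and Control libraries overlapped in this core sum, and Hif1a_siRNA libraries, at 30.4 to 33.6 CPM, were below all others. The sum covers 17 genes and leaves out the 16 core genes missing from at least 1 list. Of these, the 11 listed for Dox ran from 0.525 to 5.77 CPM in Dox, against 0.0433 to 0.749 CPM in Control. The order of the groups over all core genes is therefore not given by this sum. Variant genes summed to 1831 ± 106 CPM in Hif1a_siRNA_Dox, 2371 ± 109 in Dox, 1927 ± 59 in Hif1a_siRNA, 2256 ± 46 in NC_siRNA and 2346 ± 51 in Control.

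A list of 28 S phase genes, such as Pcna and the Mcm helicase subunits, was set beside the core genes. It summed to 2249 to 2398 CPM in Hif1a_siRNA_Dox, 2421 to 2539 in Dox, 1981 to 2047 in Hif1a_siRNA, 660 to 689 in NC_siRNA and 1099 to 1114 in Control. In Dox against Control 25 of the 28 rose (89.3%, against 43.9% of all genes) and 2 fell, with a median log2 fold change of 1.57 beside -0.19 for the 17 core histone genes without H2ac25. In Hif1a_siRNA_Dox against Hif1a_siRNA 17 rose (60.7%, against 42.6%) and 8 fell (28.6%, against 41.6%), with a median of 0.33 beside 1.22. In Hif1a_siRNA against NC_siRNA 26 rose (92.9%, against 36.4%) and 1 fell, with a median of 1.90 beside 0.23. In NC_siRNA against Control 3 rose and 23 fell (82.1%, against 33.7%), with a median of -0.84 beside -1.04. The 17 core genes leave out the 16 missing from at least 1 list. Of these, the 11 listed for Dox ran from 0.525 to 5.77 CPM in Dox, against 0.0433 to 0.749 CPM in Control. The core medians given here therefore hold for the tested core genes only. The part of S phase in the histone values was not tested.

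**Figure D5:**
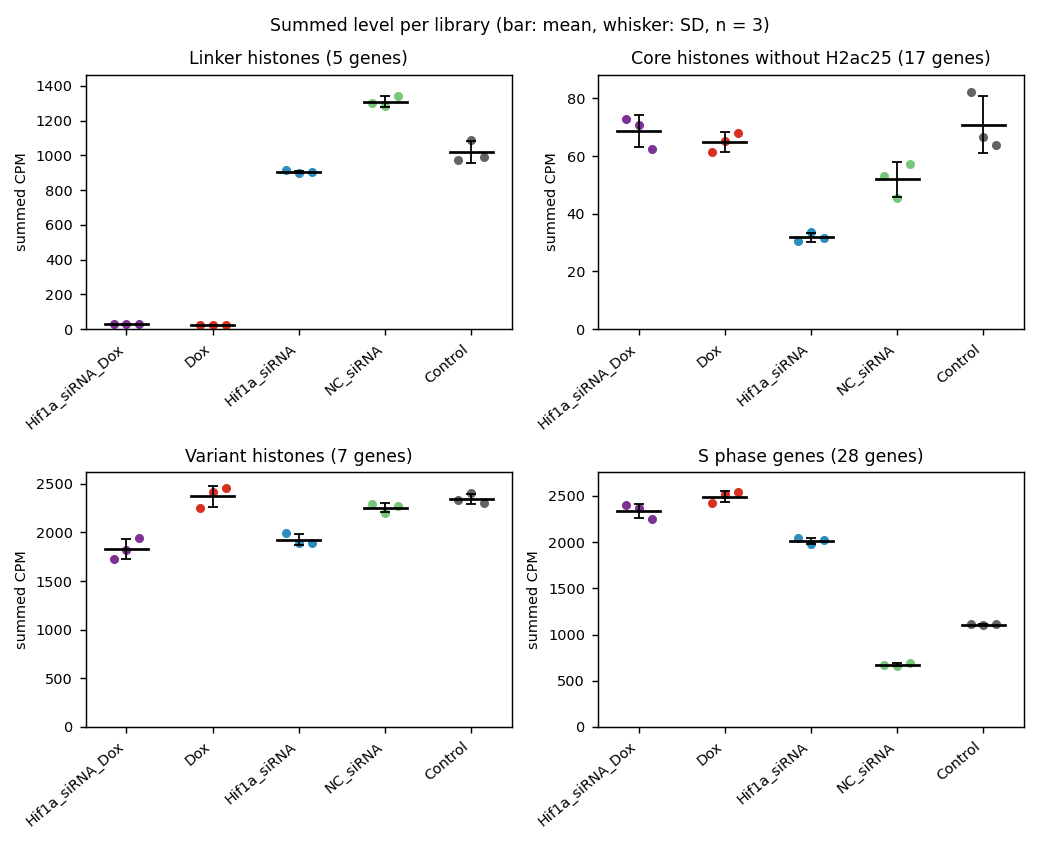
Summed CPM per library of the 5 linker genes, the 17 core genes without H2ac25, the 7 variant genes and the 28 S phase genes in the 5 groups (points), with mean and SD (n = 3). The linker sum is near 0 on this axis in both doxorubicin groups, whereas the core sum is lowest in Hif1a_siRNA and the S phase sum in NC_siRNA.

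Genes that make, process and deposit histones were counted as a list of 32, all tested. In Dox against Control 12 rose (37.5%, against 43.9% of all genes) and 15 fell (46.9%, against 39.8%), shares near those of all genes, with a median log2 of 0.09. By smallest adjusted p the first were Atrx, a chromatin remodeller that places H3.3 with Daxx (-2.71 ± 0.07), Vps72, an H2A.Z-binding subunit of deposition complexes (-2.63 ± 0.10), Npat, the coactivator of replication-dependent histone genes (-1.94 ± 0.09), and Hjurp, the chaperone of the centromeric H3 variant (-2.09 ± 0.10). Slbp, the protein that binds the stem-loop, had 25.2, 25.4 and 25.2 CPM in Dox and 20.6, 25.7 and 25.5 CPM in Control and did not pass (adjusted p = 0.45). In Hif1a_siRNA_Dox against Hif1a_siRNA 9 rose (28.1%, against 42.6% of all genes) and 21 fell (65.6%, against 41.6%), with a median of -0.50, led by Atrx (-2.57 ± 0.07), Npat (-2.75 ± 0.09), Hat1, an acetyltransferase of new H4 (-1.59 ± 0.08), and Chaf1a, a subunit of the CAF-1 chaperone (-2.16 ± 0.13). Npat had 12.6, 12.8 and 12.5 CPM in Hif1a_siRNA_Dox libraries against 85.8, 81.6 and 88.3 CPM in Hif1a_siRNA libraries, while 14 of 18 core histone genes rose in that pair.

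In Hif1a_siRNA against NC_siRNA 22 of the 32 rose (68.8%, against 36.4% of all genes) and 5 fell (15.6%, against 31.2%), with a median log2 of 0.43. Led by adjusted p, these were Nasp, a linker and H3-H4 histone chaperone (1.80 ± 0.09), Asf1b, an H3-H4 chaperone (2.11 ± 0.12), Hat1 (1.37 ± 0.08) and Chaf1b of CAF-1 (1.43 ± 0.09). In NC_siRNA against Control 13 rose (40.6%, against 33.1% of all genes) and 12 fell (37.5%, against 33.7%), with a median of -0.05, led by the chaperone Nap1l1 (-1.32 ± 0.07), Ubn1 of the HIRA complex (2.03 ± 0.11), Hat1 (-1.21 ± 0.08) and Cenpa, the centromeric H3 variant (-1.03 ± 0.09). In Hif1a_siRNA_Dox against Dox 7 rose (21.9%, against 21.5% of all genes) and 5 fell (15.6%, against 20.8%), with a median of 0.09, led by Zfp473, a component of histone mRNA processing (1.66 ± 0.22), Nasp (0.62 ± 0.09), and the histone-binding proteins Rbbp4 (-0.40 ± 0.06) and Rbbp7 (-0.37 ± 0.06). All values in these sentences are log2 fold changes with their SE, and each adjusted p was at most 3.1e-05.

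The doxorubicin effect with the Hif1a siRNA was compared with that without it, as a difference of the 2 log2 fold changes. It was positive in 11 of 33 histone genes (33.3%, against 26.3% of all genes) and negative in 4 (12.1%, against 32.3%). The count of 4 was 2 without Control replicate 3, Hif1a_siRNA replicate 1 or Hif1a_siRNA_Dox replicate 1. Among linker genes 3 were positive: H1f2 (3.11 ± 0.24, adjusted p = 5.6e-10), whose fall was 5.28-fold with the siRNA and 45.6-fold without it, H1f3 (1.49 ± 0.59, adjusted p = 0.036) and H1f0 (0.32 ± 0.11, adjusted p = 0.013). Among core genes 8 were positive (44.4%, against 26.3% of all genes) and 0 negative (against 32.3%). Their median was 0.95 beside -0.06 over all genes, led by H2ac18 (2.96 ± 0.36, adjusted p = 3.5e-07) and H2ac19. The 8 include the near-identical neighbours H2ac18 and H2ac19, and H3c14 and H3c15, whose split of reads is uncertain. A gene could be listed for NC_siRNA through its Control reads alone, which favours positive differences in this count and median. The part of this rule in the difference was not tested. Among variant genes none was positive and 3 were negative, with H2ax at -0.79 ± 0.14 (adjusted p = 5.4e-05). The starting levels differed too: H1f2 averaged 3.94 CPM in Hif1a_siRNA_Dox against 21.0 CPM in Hif1a_siRNA, and 2.00 CPM in Dox against 91.7 CPM in Control. These comparisons share libraries, so their values are given side by side only. NC_siRNA cells received no doxorubicin in these data, so transfection and knockdown cannot be told apart in this difference either.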

How the data were processed

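The authors deposited raw read counts per gene, 1 table per library, with no normalization. Per the submitters' processing notes, mm10 was the build, and the tools were StringTie 2.1.3b, Bowtie2 2.3.4.1, HISAT2 2.1.0, Trimmomatic 0.38 and FastQC 0.11.7; whether counting used strand is not given in the sources used here. Repeated rows, 24 to 28 per table outside Control, were kept once. Counts of the 12721 genes listed for all 5 groups were scaled by TMM and fitted with edgeR 4.0.16 (R 4.3.3; robust dispersions, 1 term per group, all 15 libraries, two-sided tests). A filter on low counts (10 reads) removed 0 genes. CPM are TMM-scaled. Adjusted p-values are Benjamini-Hochberg values per comparison, threshold 0.05. On simulated data for Dox against Control (12721 genes, 200 of them changed), the fit recovered 61.2% of genes changed by a fold of 1.5 and 82.1% by a fold of 2. The changed genes were drawn from all genes, and far more genes were called in the data itself. Recovery for histone genes of few reads may therefore differ. Genes named are Hif1a, all linker and variant histones, the 6 core genes with the highest mean CPM, called core genes with large changes and at least 5 CPM, and up to 4 supply genes per comparison; other core genes and Slbp were named after their values were seen. Members and lists were chosen with earlier results of these data known. Alternatives were RLE and upper-quartile scaling, DESeq2 1.42.0, other filters, a fold threshold, a replicate block, only the groups compared, and leaving out each library.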

Additional observations from a re-analysis of the deposited data

Results flagged for a closer look

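The doxorubicin effect with the Hif1a siRNA (Hif1a_siRNA_Dox over Hif1a_siRNA) differed from that without it (Dox over Control) in 11 of the 21 histone genes given in full, by edgeR's test of the difference itself (adjusted p under 0.05). Over all 12721 tested genes, 26.3% were called positive and 32.3% negative in this difference, so such calls were common. Linker genes differed by log2 3.11 (H1f2), 1.49 (H1f3) and 0.32 (H1f0). Core genes differed by 2.96 (H2ac18), 1.81 (H2bc8), 1.73 (H2bc4) and 0.77 (H2bc21). Variant genes and H3.3-type copies differed by -0.79 (H2ax), -0.28 (H2az1), -0.24 (H3f3a) and -0.54 (H3f3a-ps2). The H1f3 call was lost in 8 of 12 fits without 1 library, with adjusted p from 0.066 to 0.11; it held without Control replicate 2, Dox replicate 1, Hif1a_siRNA replicate 1 or Hif1a_siRNA_Dox replicate 2. The H1f0 call was lost without Dox replicate 2 (log2 0.24, adjusted p = 0.055). The H3f3a call was lost with DESeq2 (log2 -0.16, adjusted p = 0.11), with RLE size factors (adjusted p = 0.12), with upper-quartile factors (adjusted p = 0.058), and without Control replicate 3, Dox replicate 3, Hif1a_siRNA replicate 1 or Hif1a_siRNA_Dox replicate 1 (adjusted p from 0.051 to 0.093). The H2az1 call was lost with RLE size factors (log2 -0.21, adjusted p = 0.054). The H3f3a-ps2 call was lost without Control replicate 3, Dox replicate 2, Hif1a_siRNA replicate 1, or Hif1a_siRNA_Dox replicate 1 or 2 (adjusted p from 0.052 to 0.082), and H3f3a-ps1 passed without Hif1a_siRNA_Dox replicate 3 (log2 -0.82, adjusted p = 5.3e-05). Levels without the drug differed between the settings, and transfection and knockdown cannot be told apart here.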

How the results depend on the processing

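For the 21 histone genes given in full, 1762 alternative values were computed; 1621 kept their direction and side of the threshold, 75 lost a call, 19 gained one and 47 changed sign, 0 of them in a result that had passed. Upper-quartile factors moved the median of all genes by 0.126 (log2) in Dox against Control and by 0.149 in Hif1a_siRNA_Dox against Hif1a_siRNA. With a fold of at least 2 required besides the adjusted p, 3 histone genes were higher and 3 lower in Hif1a_siRNA against NC_siRNA. The counts were 4 higher and 7 lower in Dox against Control, and 0 higher and 0 lower in Hif1a_siRNA_Dox against Dox. They were 12 higher and 4 lower in Hif1a_siRNA_Dox against Hif1a_siRNA, and 0 higher and 11 lower in NC_siRNA against Control. In the difference of the doxorubicin effects 9 were higher and 0 lower. Fewer genes can pass under this rule by construction. In Hif1a_siRNA_Dox against Dox the 5 higher genes were 2 when only these groups were fitted, 3 with the replicate block, 3 with upper-quartile factors and 1 to 6 without 1 library. In NC_siRNA against Control the 4 higher genes were 2 with upper-quartile factors and 2 to 4 without 1 library. In the difference the 4 lower genes were 2 with RLE size factors and 2 to 5 without 1 library. The cause was not tested.

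Signs that changed, all in results that did not pass, were these log2 values. In Dox against Control, H1f10 was -0.06 with DESeq2, -0.06 with RLE, -0.00 with at least 1 CPM required, -0.10 with only these groups and -0.12 to 0.17 without 1 library. In Hif1a_siRNA_Dox against Dox, H2az2 was 0.04 with DESeq2, 0.04 with RLE, 0.00 with only these groups and -0.11 to 0.12 without 1 library, H1f3 was -0.51 to 0.27 and H1f4 -0.37 to 0.52 without 1 library. In Hif1a_siRNA_Dox against Hif1a_siRNA, upper-quartile factors gave 0.10 for H2ax and 0.06 for H2az1, and H2ax was -0.19 to 0.02 without 1 library. In NC_siRNA against Control, H3f3b was 0.00 with DESeq2, 0.00 with RLE, 0.01 with only these groups and -0.04 to 0.03 without 1 library, H3f3a-ps1 was -0.01 with upper-quartile factors, and without 1 library H1f4 was -0.36 to 0.18, Macroh2a1 -0.06 to 0.04 and H3f3c -0.07 to 0.03. In the difference, H1f4 was 0.07 with DESeq2, 0.06 with RLE, 0.03 with the replicate block and -0.48 to 0.41 without 1 library, H2aj was 0.03 with DESeq2, 0.03 with RLE and -0.11 to 0.03 without 1 library, and without 1 library H2ac25 was -0.15 to 3.50 and H4c9 -0.01 to 0.28. The cause was not tested.

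Same-numbered libraries of different groups did not deviate together (correlations from -0.162 to 0.0872). No pairing by number was seen, though this check cannot exclude that such libraries were handled together. The replicate block took away 1 call of a named gene, H2ac18 in Hif1a_siRNA_Dox against Dox (log2 0.68, adjusted p = 0.052). Genes of a few reads per library, such as H1f3 and H1f4, limit what can be called, and poly(A) selection limits core histone values to the RNA captured.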
